A study of Mus musculus with 6 samples.

Results

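The genes described here encode the respiratory chain subunits that are made from nuclear DNA. They were selected from a table of 55421 gene rows in 6 RNA sequencing libraries of mouse microglia by gene name (Nduf subunits A, B, C, S and V, Sdha to Sdhd, the Uqcr genes, Cox4 to Cox8 and the Atp5 genes) and by a protein-coding annotation. The name rule took 86 rows of 85 symbols: 38 in complex I, 4 in complex II, 8 in complex III, 18 in complex IV and 17 in complex V. Atp5o had 2 rows, which share 243 exonic bases, and the row with the higher level was kept. Ndufa4 and Ndufa4l2 are counted with complex I because of their names, although Ndufa4 is now regarded as a subunit of complex IV, and Ndufb1-ps is annotated as protein-coding despite its name.

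The 3 libraries labelled WT come from QKIfl/fl mice and the 3 labelled KO from mice of the genotype QKIflfl; Cx3cr1cre-ert2, an allele that places an inducible Cre recombinase under the microglial and myeloid Cx3cr1 promoter. All animals were C57BL/6 of 4 to 5 weeks, and the cells were sorted by CD45 and CD11B after a Percoll step that took out myelin. The groups thus also differ by the allele that brings the Cre, the labels name no inducing agent, and no label says that the libraries of a group are separate animals, so the p-values measure the spread between these libraries only. Qk, the targeted gene, rose: the 3 libraries labelled WT held 11180, 12556 and 11160, and the 3 labelled KO held 25951, 23859 and 24493. These values count reads over the whole gene, so they cannot show whether the targeted part of Qk was removed. Whether the labels match the state of Qk was not tested. Cx3cr1, the gene that carries the Cre, fell from 246161 ± 11084 to 58308 ± 4848 (SD, n = 3 each). All directions below are those of the libraries as labelled.

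Each library held 56988261 to 77199936 reads counted on genes, and the authors scaled every library to the same total, 34360040 to 34360054; a level below is in these scaled units. All 8 microglial markers were found in every library, but 7 of the 8 were lower in the libraries labelled KO (6 lower and 1 higher under TMM, described next), and their summed level was 1429560 to 1465100 against 677042 to 763776. Cx3cr1, the gene that carries the Cre, is among these 7 and in the sum. Of all genes tested, 23.4% were lower under the deposited scaling, and 15.4% were lower and 15.4% higher under TMM. Under the deposited scaling the median log2 fold change (KO over WT) of the 22472 genes tested was −0.15. Under TMM, a second scaling that centres the bulk of genes, it was −0.02. Since this shift is as large as many of the changes of the subunits, calls of the subunits are given under both scalings; a level, and a summed level unless stated, is under the deposited one. In bulk RNA of sorted cells, fewer cells of a type and less RNA per cell cannot be told apart.

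The respiratory chain carries electrons from NADH (complex I) and succinate (complex II) through complex III and cytochrome c to oxygen at complex IV, and ATP synthase (complex V) uses the resulting proton gradient to make ATP. Apart from complex II, each complex joins a few subunits encoded by mitochondrial DNA to many encoded in the nucleus, so that both genomes have to supply parts. In microglia, oxidative phosphorylation is the main source of ATP in the surveying state, and activated cells lean more on glycolysis. Nuclear subunit genes are known targets of NRF1, of the ETS factor GABP, and of YY1, with PGC-1 family coactivators.

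Most subunit genes did not pass the test. Under the deposited scaling with no block, 8 of the 11 higher genes were in complexes IV and V, and the 9 lower genes were in complexes I and II. The share higher was 33.3% in complex IV and 17.6% in complex V, against 11.3% of all genes tested. The share lower was 18.4% in complex I and 50% of the 4 genes of complex II, against 23.4% of all genes. Of the 85 genes, 82 reached a mean level above 1 and were tested. In limma with Benjamini-Hochberg adjustment under the deposited scaling, 11 of the 82 were higher (13.4%), against 11.3% of all genes tested, and 9 were lower (11%), against 23.4% of all genes. Under TMM, 25 were higher (30.5%) and 0 lower, against 15.4% of all genes higher and 15.4% lower. At an unadjusted p under 0.05 TMM left 3 lower (Ndufv1, Sdhc and Cox4i2), and on the recovered reads edgeR called 0 lower and DESeq2 1, Cox4i2. All 11 of the deposited scaling were also called under TMM, whereas each of the 9 lower genes lost its call there.

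The median log2 fold change of the 82 genes was 0.03 under the deposited scaling and 0.16 under TMM, and it was −0.06 and −0.04 under the deposited scaling when library B labelled WT or library A labelled KO was left out. The count of lower genes under the deposited scaling was 3 without library A labelled WT, 1 without library C labelled WT, 3 without library B labelled KO and 2 without library C labelled KO, and the count of higher genes under TMM was 15 without library B labelled WT or library A labelled KO. The 3 levels of a group lay wholly above those of the other for 19 genes in the libraries labelled KO, and wholly below for 13, while 50 overlapped. Over all genes the shares were 15.7% above and 32.2% below. Changes were small: only Cox6a2 and Cox4i2 changed by 1 or more on the log2 scale, and 8 genes had a log2 fold change of 0.5 or more. No label pairs the libraries by letter, and the pairing was read from these same values. With the library letter as a block, 22 were higher and 13 lower, against 13.4% and 28.3% of all genes. The 13 were the 9 lower genes with Ndufv2, Uqcrc2, Cox4i2 and Atp5f1. By the authors' deposited table, 26 of the 85 were higher and 0 lower at an adjusted p under 0.05, against 10.7% and 10.3% of its genes with a fold change.

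**Figure D1:**
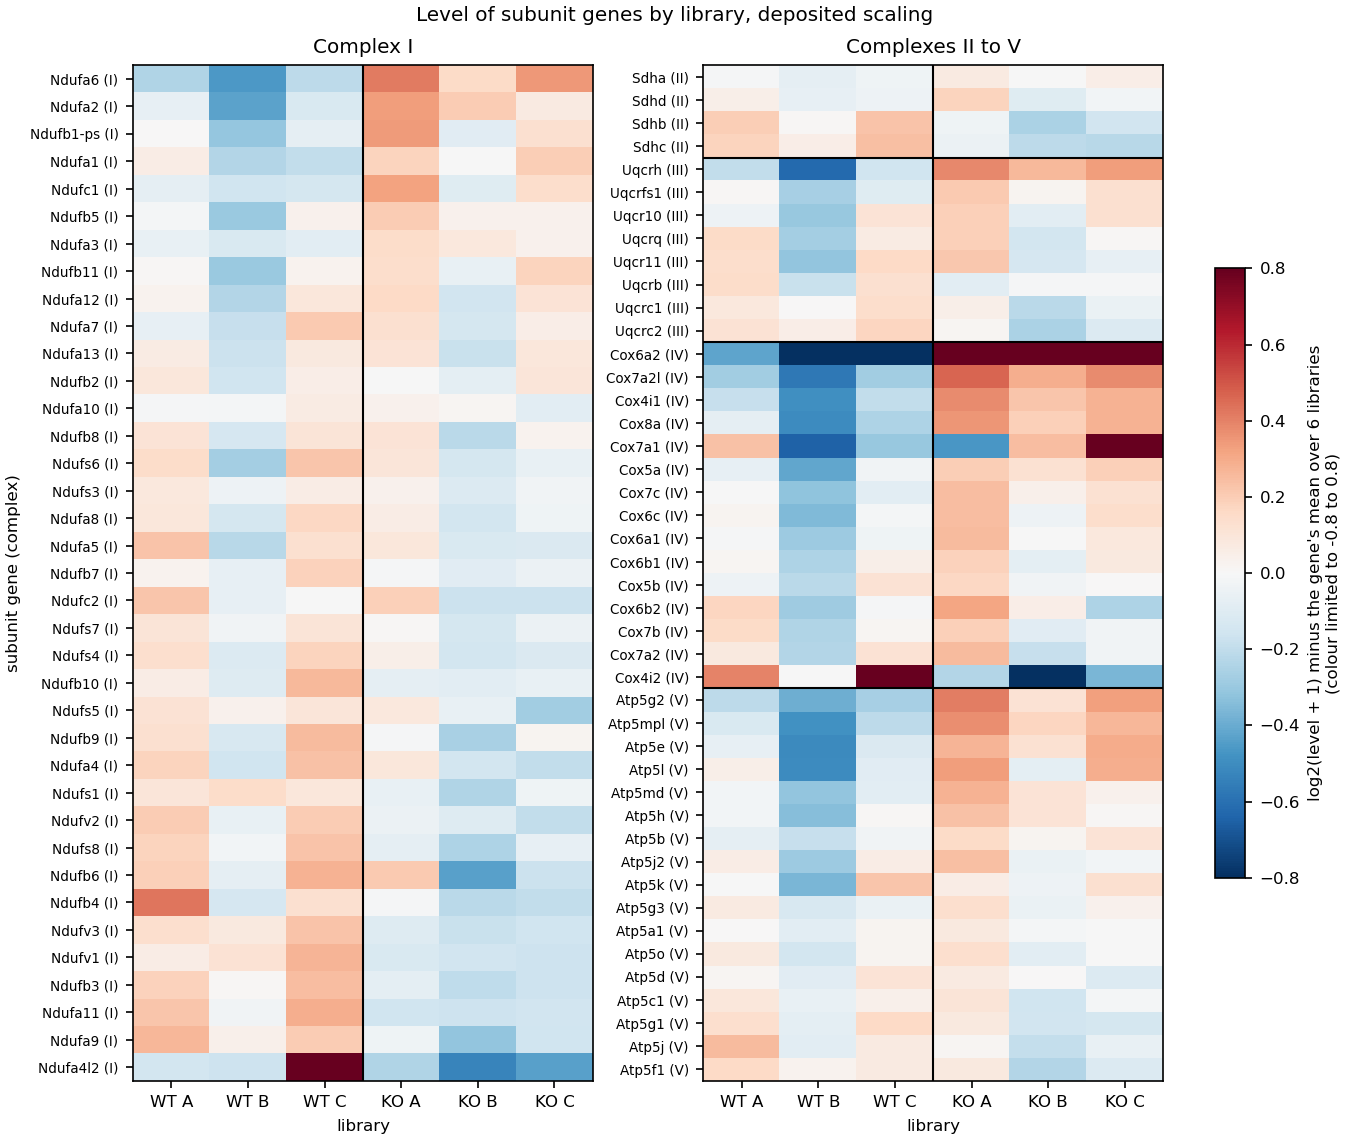
Level of 81 of the 82 tested subunit genes in each library, as log2(level + 1) minus the gene's mean over the 6 libraries, with genes in rows by complex and libraries in columns. The upper genes of complexes III, IV and V are red in all 3 libraries labelled KO, and library B is the palest or bluest of its group for most genes.

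The libraries of a group did not sit level. Library B labelled WT was the lowest of its group for 80 of the 82 genes, and library B labelled KO was the lowest of its group for 65. Library A labelled KO was the highest of its group for 70. The summed level of all 85 genes was 116965, 102989 and 117524 in the libraries labelled WT and 126762, 112142 and 118604 in those labelled KO, so the groups overlapped. By complex, the sums overlapped in I, II, III and V and did not in complex IV, with 17317, 13905 and 17080 against 23173, 20185 and 21410. The complex IV sums include Cox7a2l, counted there by its name, at 3094, 2527 and 3088 against 5170, 4583 and 4867. With TMM factors, the sums of complex V and of all tested subunits did not overlap either. Between libraries of the same letter, the ratio of KO to WT under the deposited scaling was 1.338, 1.452 and 1.253 for complex IV and 1.096, 1.094 and 1.028 for complex V.

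**Figure D2:**
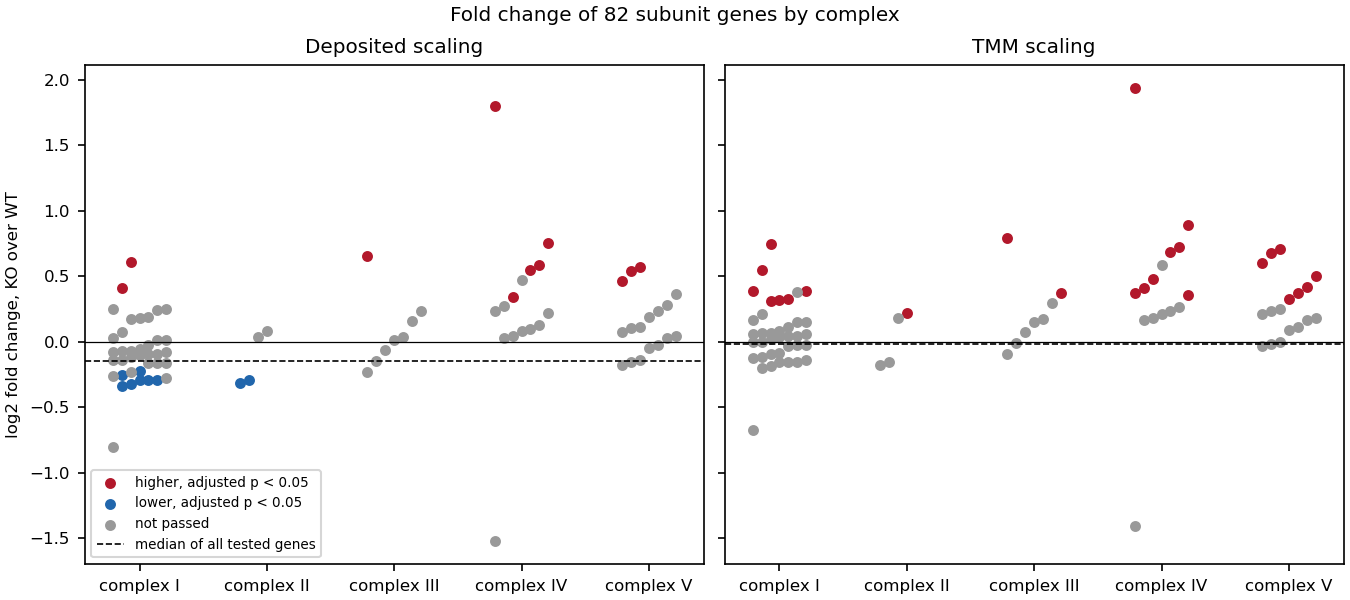
Log2 fold change (KO over WT) of the 82 tested genes by complex, under the deposited scaling (left) and TMM (right); red and blue points passed an adjusted p of 0.05 in limma, and the dashed line is the median of all genes tested. The blue points of complexes I and II under the deposited scaling turn grey under TMM, and the red points become more numerous in every complex.

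Promoter windows of 250 bases before to 50 bases after the start were taken from RefSeq (GRCm38.p6), which held 68 of the 85 genes, 67 by symbol and 1 by gene ID. On either strand, an NRF1 motif written CGCANGCG was found in 35.3% of the 68 windows and in 8.21% of all 32851 windows of that length, and its longer form GCGCATGCG, which also matches the first, in 11.8% and 1.75%. The YY1 motif AAGATGGC was found in 13.2% and 2.75%, the ETS motif CCGGAAGT in 7.35% and 3.89%, and the E-box CACGTG in 8.82% and 7.15%. The set of all windows was not matched to the subunit windows for GC content or for expression. At least one motif of the set was in 54.4% of the subunit windows and 19.1% of all windows. It was in 57.1% of the 7 windows of genes higher under both scalings and in 57.1% of the 42 windows of genes called under neither. For single motifs the counts were small: ETS was in 2 of the 7 and 2 of the 42, and YY1 in 0 of the 7 and 7 of the 42. The windows of 4 genes that rose, and of Atp5g3 as the sister gene of Atp5g2, are shown 5′ to 3′ on the gene's own strand, with motif matches in capitals.

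Atp5g2, chr15:102670998-102671297, minus strand, NRF1: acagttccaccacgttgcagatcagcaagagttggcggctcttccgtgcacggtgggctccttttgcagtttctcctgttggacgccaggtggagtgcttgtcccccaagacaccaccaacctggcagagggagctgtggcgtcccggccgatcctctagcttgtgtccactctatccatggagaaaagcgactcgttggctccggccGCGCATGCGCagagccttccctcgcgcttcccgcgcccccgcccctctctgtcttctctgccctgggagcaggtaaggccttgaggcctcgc
Atp5g3, chr2:73911277-73911576, minus strand, NRF1 and E-box: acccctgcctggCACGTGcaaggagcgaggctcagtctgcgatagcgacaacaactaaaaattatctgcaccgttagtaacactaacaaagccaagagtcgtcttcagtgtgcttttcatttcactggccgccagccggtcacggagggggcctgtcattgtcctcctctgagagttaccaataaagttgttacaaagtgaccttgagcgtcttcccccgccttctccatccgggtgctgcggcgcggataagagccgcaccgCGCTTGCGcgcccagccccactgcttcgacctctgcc
Uqcrh, chr4:116075021-116075320, minus strand, ETS: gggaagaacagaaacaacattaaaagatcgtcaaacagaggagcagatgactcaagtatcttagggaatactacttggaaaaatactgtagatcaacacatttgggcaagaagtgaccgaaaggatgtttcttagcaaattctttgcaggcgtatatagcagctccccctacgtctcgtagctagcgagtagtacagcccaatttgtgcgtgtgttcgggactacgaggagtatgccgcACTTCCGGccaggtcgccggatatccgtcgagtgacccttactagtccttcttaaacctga
Cox8a, chr19:7217567-7217866, minus strand, ETS at both matches: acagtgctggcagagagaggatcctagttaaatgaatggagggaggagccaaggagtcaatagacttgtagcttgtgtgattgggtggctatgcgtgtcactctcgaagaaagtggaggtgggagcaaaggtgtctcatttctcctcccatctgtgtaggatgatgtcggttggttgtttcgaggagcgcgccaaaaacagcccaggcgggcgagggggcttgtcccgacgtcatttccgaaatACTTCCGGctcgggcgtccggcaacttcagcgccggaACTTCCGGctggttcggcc
Cox7a2l, chr17:83514284-83514583, minus strand, no match: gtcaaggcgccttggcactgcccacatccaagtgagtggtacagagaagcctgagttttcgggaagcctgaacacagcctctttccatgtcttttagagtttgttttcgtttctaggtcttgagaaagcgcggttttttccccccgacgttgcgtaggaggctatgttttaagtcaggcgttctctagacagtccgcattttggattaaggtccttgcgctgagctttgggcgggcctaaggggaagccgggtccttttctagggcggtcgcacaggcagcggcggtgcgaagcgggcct

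Complex IV, cytochrome c oxidase, held 5 of the 11 genes that rose, with 0 of 15 tested genes lower. The 5 were 33.3% of its tested genes, against 11.3% of all genes. Its median log2 fold change was 0.23 under the deposited scaling and 0.37 under TMM. Under TMM 8 rose (53.3%, against 15.4% of all genes). At an unadjusted p under 0.05, 1 was lower under either scaling, and edgeR called 0 lower and DESeq2 1. Cox7a2l (ENSMUSG00000024248, mm10 chr17:83501918-83514330), a relative of Cox7a2, is counted with complex IV because of its name. It stood at 3094, 2527 and 3088 in the libraries labelled WT and at 5170, 4583 and 4867 in those labelled KO. The groups did not overlap, and the log2 fold change was 0.75 ± 0.09 (SE, limma adjusted p = 0.000128). Its promoter window, shown above, held none of the motifs searched.

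Cox4i1 (chr8:120668222-120674207), the common form of subunit 4, was the most abundant complex IV gene per kilobase of transcript. It rose from 3605, 2913 and 3580 to 5337, 4778 and 4964 (log2 fold change 0.58 ± 0.09, SE, limma adjusted p = 0.000747). Its exons share 154 bases, 20.1% of its length, with Emc8 on the other strand, and no source used here says whether reads were counted by strand. Emc8 was lower under the deposited scaling, at mean levels of 1237 and 997, and did not pass under TMM.

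Cox8a (chr19:7215153-7217616), the ubiquitous subunit 8, was at 1825, 1354 and 1621 in the libraries labelled WT and at 2454, 2196 and 2325 in those labelled KO, with a log2 fold change of 0.55. Its window carries ETS matches beginning at −6 and at 32, counted from the start, and the first runs across the start. Cox5a, a subunit on the matrix side, was at 818, 642 and 842 against 983, 935 and 979. Its log2 fold change was 0.34 (limma adjusted p = 0.0304). It kept the call only without library A or library C labelled WT when 1 library was left out, and its exons share 14.8% of their length with the antisense Gm26631, which rose as well (log2 fold change 0.37). Cox7c, Cox6c and Cox6a1 passed under TMM, with log2 fold changes of 0.41, 0.37 and 0.36. They kept that call in 6, 2 and 4 of the 6 TMM fits that each left out 1 library. Under the deposited scaling their log2 fold changes were 0.27, 0.23 and 0.22 and passed only with the library letter as a block (limma adjusted p of 0.00829, 0.0166 and 0.0166). Cox6b1, Cox5b, Cox7b and Cox7a2 did not pass under either, with deposited log2 fold changes of 0.03 to 0.12. On the recovered reads DESeq2 called Cox6b1 higher (DESeq2 adjusted p = 0.0434), and edgeR did not call it.

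**Figure D3:**
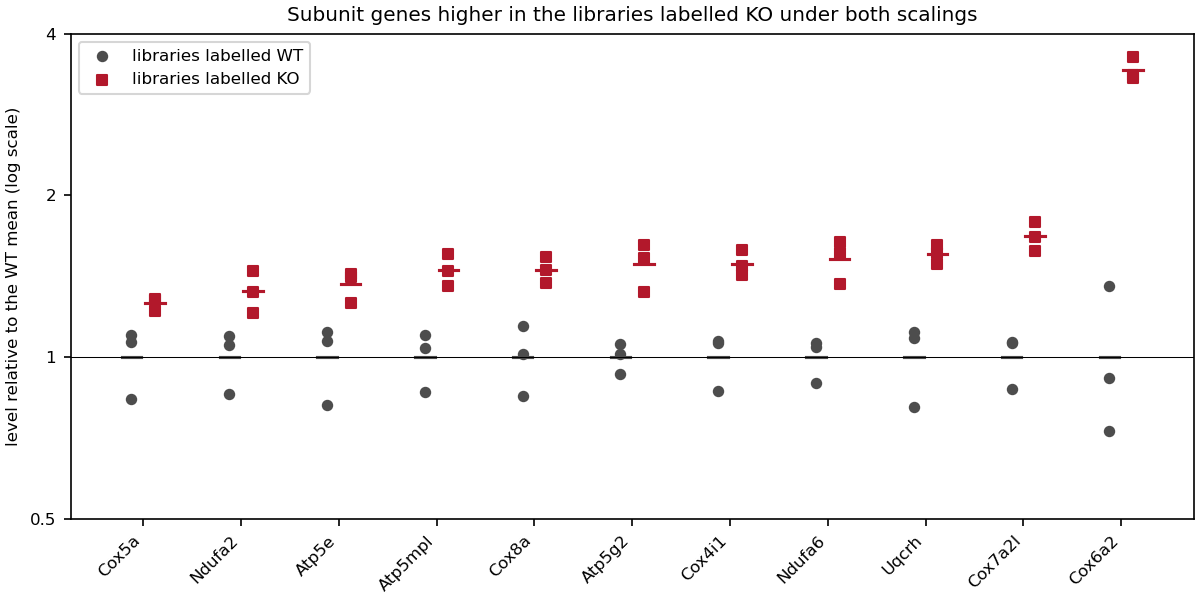
Levels of the 11 genes called higher under both scalings in each library, relative to the mean of the libraries labelled WT, on a log axis; short lines are group means. For every gene the 3 libraries labelled KO lie above the 3 labelled WT, and Cox6a2 lies furthest above.

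Several complex IV subunits have a form used in most tissues and a second form named for muscle, lung or testis. Cox6a2 (chr7:128205435-128206387), the heart and skeletal muscle form of subunit 6a, was at 66.3, 35.6 and 44.6 and rose to 177, 164 and 162. This was the largest rise among the subunits tested (log2 fold change 1.80 ± 0.22, SE, limma adjusted p = 0.000144), and Cox6a2 was the only subunit in the authors' deposited list of 503 genes. It remained low beside Cox6a1: per kilobase, the ratio of Cox6a2 to Cox6a1 was 0.0363, 0.0237 and 0.0248 in the libraries labelled WT and 0.0808, 0.0889 and 0.0831 in those labelled KO. Its exons share 70 bases with Itgad on the other strand, whose mean level was 15.6 and 22.9 and did not pass.

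Cox4i2, the lung and hypoxia-linked form of subunit 4, went the other way in level without passing the test. It was at 12.7, 9.35 and 37.4 in the libraries labelled WT and at 7.79, 2.22 and 7.03 in those labelled KO (log2 fold change −1.53, limma adjusted p = 0.0582, and 0.0155 with the library letter as a block). Without library C labelled WT the log2 fold change was −0.96, and without library B labelled WT it was −1.91 and passed (limma adjusted p = 0.0377). Ndufa4l2, the hypoxia-linked relative of Ndufa4, showed the same single high library, with 16.2, 16.02 and 53.7 against 15.1, 12.2 and 13.1, and did not pass (log2 fold change −0.80, and −0.25 without library C labelled WT). In the same library the summed level of the 9 pericyte and smooth muscle markers was 4209, against 1866 and 1477 in the others labelled WT and 886 to 1062 in those labelled KO. Of the 9 markers, 6 were lower (66.7%, against 23.4% of all genes tested) and all 9 were above 0 in every library. Library C labelled WT was also the highest of the 6 in the summed markers of each other non-microglial type listed at the end. The part of these cells in the levels of Cox4i2 and Ndufa4l2 was not tested.

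Among the other forms, Cox7a1, the muscle form of subunit 7a, was at 3.12 to 6.58 in the libraries labelled WT and at 3.66 to 11.2 in those labelled KO, and Cox6b2, the testis form of subunit 6b, was at 17.8 to 24.8 and 18.3 to 27.5. Both overlapped between groups. Cox7b2 and Cox8c were listed at 0 in every library, and Cox8b, the muscle form of subunit 8, had a mean level of 0.297 and 0.867, under the floor of 1.34 to 1.81 that 3 reads stand for.

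**Figure D4:**
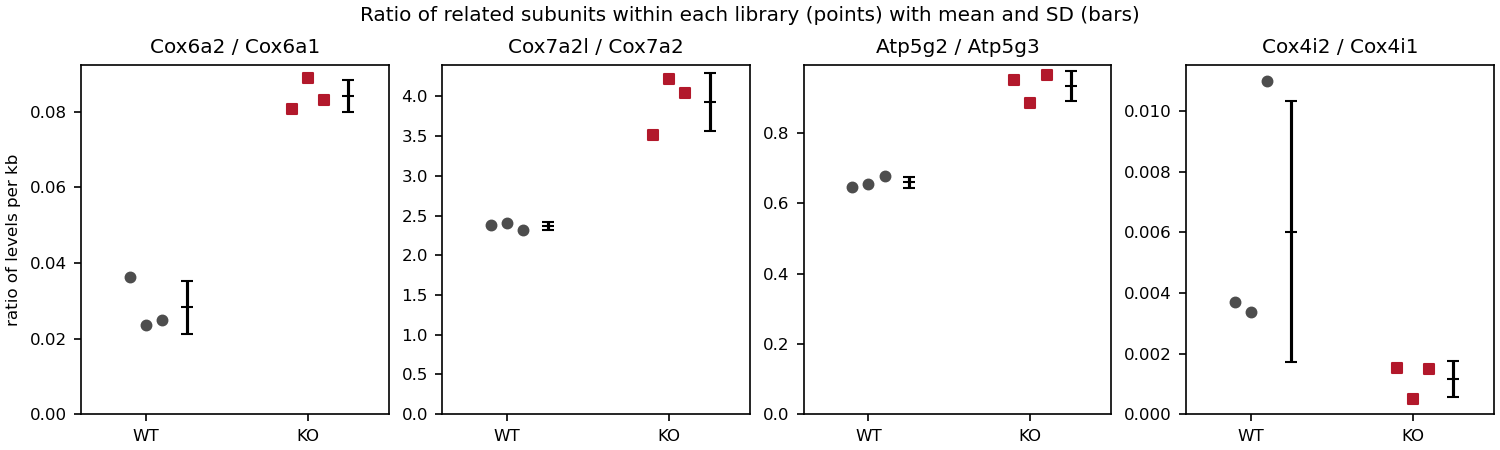
Ratio of levels per kilobase of 4 pairs of related subunits in each library (points, 3 per group), with mean and SD to the right of the points. Cox6a2 over Cox6a1, Cox7a2l over Cox7a2 and Atp5g2 over Atp5g3 are higher in all 3 libraries labelled KO, and Cox4i2 over Cox4i1 is lower.

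A ratio within a library does not depend on the scaling. Cox7a2l over Cox7a2 was 2.38, 2.41 and 2.31 in the libraries labelled WT and 3.52, 4.23 and 4.04 in those labelled KO, a ratio of the means of 1.66. Atp5g2 over Atp5g3 was 0.646, 0.655 and 0.676 against 0.951, 0.884 and 0.963. The spread within a group was small beside these differences, although 3 libraries against 3 cannot give an exact permutation p under 0.10. Ratios of Ndufa4l2 to Ndufa4, Cox6b2 to Cox6b1 and Cox7a1 to Cox7a2 overlapped between groups. Atp5g1 over Atp5g3 went the other way, at 0.0719, 0.0714 and 0.0796 against 0.0665, 0.0642 and 0.0612.

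In ATP synthase, 3 of 17 genes rose under the deposited scaling (17.6%) and 7 under TMM (41.2%), against 11.3% and 15.4% of all genes tested. The medians were 0.10 and 0.24 (log2), with 0 lower in either. None was lower at an unadjusted p under 0.05 or with edgeR or DESeq2. Atp5g1, Atp5g2 and Atp5g3 encode the same mature c subunit behind different leader peptides. Atp5g2 (chr15:102662864-102671127) was at 1026, 904 and 985 in the libraries labelled WT and at 1573, 1285 and 1488 in those labelled KO (log2 fold change 0.57 ± 0.09, SE, limma adjusted p = 0.000941). Atp5g3, the most abundant of the 3 per kilobase, was at 1459 ± 104 and 1533 ± 99.2 (SD, n = 3 each) and did not pass. Atp5g1 was at 714 ± 62.5 and 647 ± 60.2 and did not pass.

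The windows of Atp5g2 and Atp5g3 both hold an NRF1 match, beginning at −42 in Atp5g2 and at 14 in Atp5g3, counted from the start. Atp5mpl, a small proteolipid of the membrane part, rose from 520, 405 and 491 to 734, 639 and 682 (log2 fold change 0.54). Atp5e, the epsilon subunit of the central stalk, rose from 1029, 754 and 991 to 1300, 1168 and 1320 (0.46). The groups overlapped for neither gene.

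The alpha and beta subunits form the catalytic head of ATP synthase. Atp5b, the beta subunit, had the highest level per kilobase of all 85 genes. It was at 10970, 10170 and 11344 in the libraries labelled WT and at 12855, 11696 and 12440 in those labelled KO, with a log2 fold change of 0.19 (limma adjusted p = 0.0698) under the deposited scaling and 0.33 (limma adjusted p = 0.00591) under TMM. Atp5a1, the alpha subunit, was at 10653 ± 406 and 10946 ± 384 and passed under neither. On the recovered reads DESeq2 called Atp5a1 higher (log2 fold change 0.18, DESeq2 adjusted p = 0.042), and edgeR did not call it. Atp5l, Atp5md and Atp5h passed under TMM, at log2 fold changes of 0.50, 0.42 and 0.37. With the library letter as a block these 3 genes and Atp5b were also higher under the deposited scaling (limma adjusted p of 0.00314, 0.0258, 0.0456 and 0.0132), and Atp5f1, a subunit of the peripheral stalk, was lower (limma adjusted p = 0.0332). Atp5l shares 24.4% of its exonic length with the antisense Gm30934, which moved alike (0.50 under TMM).

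In complex III, the cytochrome bc1 complex, 1 of 8 genes rose under the deposited scaling and 2 under TMM, with 0 lower in either. These shares were 12.5% and 25%, against 11.3% and 15.4% of all genes tested. At an unadjusted p under 0.05 the deposited scaling had 1 lower and TMM 0, and edgeR and DESeq2 called 0. Uqcrh (chr4:116066965-116075034), the hinge protein at which cytochrome c docks, was at 1531, 1139 and 1571 and rose to 2284, 2102 and 2206. Its log2 fold change was 0.65 ± 0.11 (SE, limma adjusted p = 0.00151), the largest of the complex, and its promoter window has an ETS match 11 bases before the start. Uqcrfs1, the Rieske iron-sulfur protein, passed under TMM (0.37) and, with the library letter as a block, under the deposited scaling (0.23, limma adjusted p = 0.0115). The core proteins Uqcrc1 and Uqcrc2 had log2 fold changes of −0.15 and −0.23 under the deposited scaling and −0.01 and −0.09 under TMM, and passed under neither; with the library letter as a block, Uqcrc2 was lower (limma adjusted p = 0.0121).

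Complex I, NADH dehydrogenase, is the largest of the complexes. Of its 38 genes, 2 rose (5.26%) and 7 were lower (18.4%) under the deposited scaling, both shares below those of all genes tested (11.3% and 23.4%), with a median log2 fold change of −0.09. Under TMM 7 rose (18.4%), 0 were lower and the median was 0.04; 1 was lower there at an unadjusted p under 0.05, and edgeR and DESeq2 called 0 lower. Ndufa6 (chr15:82350140-82354322), an accessory subunit of the LYR family on the matrix arm, rose most, from 803, 689 and 818 to 1262, 1052 and 1203 (log2 fold change 0.61 ± 0.10, SE, limma adjusted p = 0.000959). Ndufa2, an accessory subunit with a thioredoxin fold, rose from 695, 541 and 668 to 920, 839 and 766, and lost its call without library B labelled WT or library A labelled KO.

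The core of complex I holds the flavin and the iron-sulfur clusters that pass electrons on to quinone. Of its 7 nuclear genes, 0 were higher and 3 were lower under the deposited scaling (42.9% lower, against 23.4% of all genes tested). Under TMM 0 passed in either direction, and none was higher at an unadjusted p under 0.05 under either scaling. TMM had 1 lower unadjusted, and edgeR and DESeq2 called 0 in either direction. Ndufv1, which binds NADH and the flavin, was at 1439, 1496 and 1668 in the libraries labelled WT and at 1271, 1242 and 1231 in those labelled KO. Its log2 fold change was −0.30 under the deposited scaling (limma adjusted p = 0.0144) and −0.16 under TMM (limma adjusted p = 0.118), and the call was lost without library C labelled WT.

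Ndufs1, the largest iron-sulfur subunit, was at 2022, 2087 and 2007 against 1812, 1601 and 1842, and Ndufs8, which carries clusters near the quinone site, at 1409, 1230 and 1463 against 1188, 1049 and 1191. Neither pair of groups overlapped, but Ndufs1 lost its call whichever library was left out and Ndufs8 kept it only without library B labelled WT. Ndufs3, which holds no cluster of its own, and Ndufv2, which carries a cluster beside the flavin, did not pass, with deposited log2 fold changes of −0.07 and −0.24. With the library letter as a block Ndufv2 was lower (limma adjusted p = 0.0378). The summed level of the 7 core genes was 10972 to 11860 in the libraries labelled WT and 9743 to 10501 in those labelled KO under the deposited scaling, and with TMM factors it overlapped, at 10653 to 11151 and 10332 to 11113.

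The other lower genes of complex I were Ndufa9, Ndufa11, Ndufb3 and Ndufv3, with log2 fold changes of −0.34, −0.32, −0.30 and −0.29 under the deposited scaling and no call under TMM. Ndufa9, an accessory subunit of the hinge between the arms, was at 2268, 1946 and 2170 against 1848, 1514 and 1693, and lost its call without library A labelled WT or library B labelled KO. In complex II, succinate dehydrogenase, the iron-sulfur subunit Sdhb (1854, 1633 and 1899 against 1582, 1360 and 1458) and the membrane anchor Sdhc (1800, 1649 and 1881 against 1540, 1375 and 1360) were lower under the deposited scaling only, at −0.29 and −0.32. The flavoprotein Sdha was at 5505 ± 113 and 5817 ± 160 and was higher under TMM only (0.22). It kept that call in 2 of the 6 TMM fits that each left out 1 library. The anchor Sdhd passed under neither scaling. Taken relative to the median of all genes tested, the 9 lower genes lay between −0.19 and −0.07 (log2), and the 11 higher genes between 0.49 and 1.95. None of the 9 lower genes kept its call in all 6 fits that each left out 1 library, and 9 of the 11 higher genes did.

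Length went with the fold change, in the subunits as over the whole table. The tested subunits had a median annotated transcript length of 841.5 bases, against 2352 over all genes tested. Across the 82 genes, Spearman's rho between length and log2 fold change was −0.34, and across all 22472 genes tested it was −0.19; genes of a library are not independent, and no p is given. Of the 49 subunits under 1000 bases, 18.4% were higher and 6.12% lower under the deposited scaling. Of the 552 protein-coding genes of that length with a mean level above 100, 26.6% were higher and 15.6% lower. Under TMM the shares were 34.7% and 0% for the short subunits against 33.9% and 7.61%. Of the 23 subunits of 1000 to 2000 bases, 8.70% were higher and 17.4% lower (21.7% and 0% under TMM), against 16.7% and 29% of protein-coding genes of that length and level (23.1% and 17.2% under TMM). Of the 10 longer ones, 0% were higher and 20% lower (30% and 0% under TMM), against 13.9% and 35.4% (21.1% and 21.9% under TMM). The part of length in the counts by complex was not tested.

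**Figure D5:**
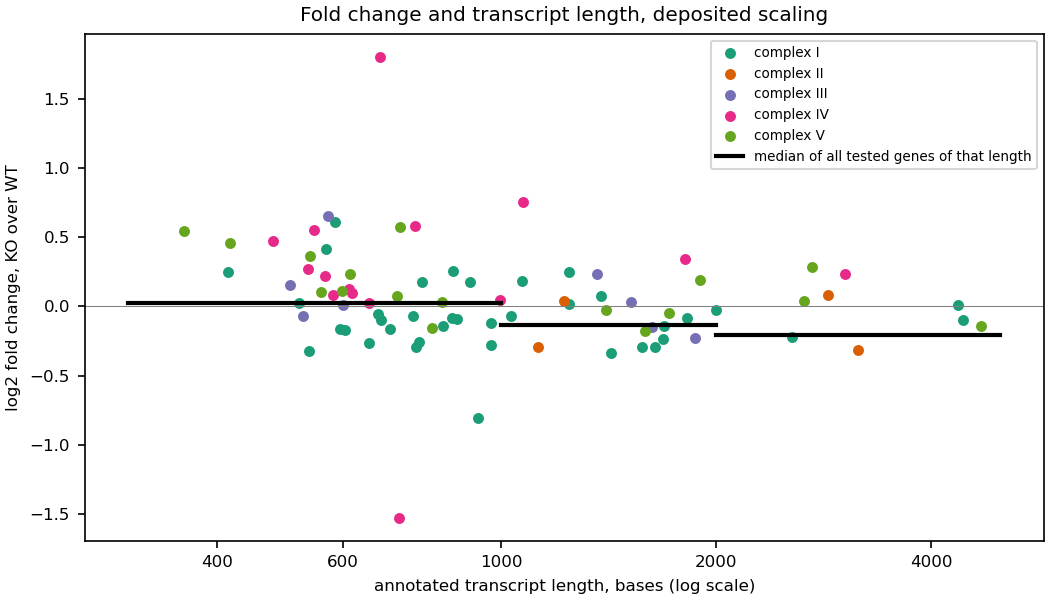
Log2 fold change (KO over WT, deposited scaling) of the 82 subunit genes against annotated transcript length on a log axis, coloured by complex; thick lines are medians of all genes tested under 1000, from 1000 to 2000 and over 2000 bases. The medians step down with length, and Cox6a2, Cox7a2l, Uqcrh and Ndufa6 lie above the median of their length.

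The annotation sets a limit on single genes. The table keeps 1 transcript per gene, and for 13 of the 85 genes this is not a protein-coding transcript, for example the long retained-intron transcripts of Ndufb7 and Cox6c, which lower the level per kilobase. Exons of 20 genes share at least 5% of their length with another gene. The 11 non-coding copies that carry a subunit's name were at 8.44 or lower in every library.

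The 4 subunits and carriers that the name rule leaves out (Ndufab1, Cyc1, Cycs and Atpif1) did not pass under the deposited scaling. Atpif1, the inhibitor of ATP synthase, was at 1284 ± 142 and 1482 ± 63.9 and was higher under TMM (0.35). The 13 subunits made from mitochondrial DNA moved further: 9 rose (69.2%) and 0 were lower under both scalings. Of all genes, 11.3% rose and 23.4% were lower under the deposited scaling, and 15.4% each way under TMM. The median log2 fold change of the 13 was 0.77 under the deposited scaling. For 5 of the 13 the levels labelled KO lay wholly above those labelled WT, against 15.7% of all genes. Their summed level was 218773 to 313979 in the libraries labelled WT and 410637 to 491117 in those labelled KO. mt-Co1, the catalytic subunit of complex IV, had a mean level of 110494 and 216201; none of the 13 was lower at an unadjusted p under 0.05 in limma, edgeR or DESeq2.

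Assembly factors help to build the complexes without staying in them. Of 50 tested, 1 rose (2%) and 10 were lower (20%) under the deposited scaling, against 11.3% and 23.4% of all genes. Under TMM 6 rose and 6 were lower (12% each), against 15.4% each way. Taco1, a translational activator of mt-Co1, fell from 366 to 223 (means) (log2 fold change −0.71), and Tmem126b, of the complex I intermediate assembly complex, from 551 ± 7.71 to 353 ± 31.3 (−0.65). Sdhaf4, a factor for the flavoprotein of complex II, and Sco1, a copper chaperone of complex IV, also fell under both scalings (−0.62 and −0.52 under the deposited scaling). Ttc19, a factor for the Rieske protein, rose (0.31).

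Of 14 tricarboxylic acid cycle genes, 1 rose and 3 were lower under the deposited scaling (7.14% and 21.4%, against 11.3% and 23.4% of all genes). Under TMM 2 rose and 1 was lower (14.3% and 7.14%, against 15.4% each way). Idh2, which makes NADPH in mitochondria, fell from 4619 ± 268 to 3381 ± 204 (log2 fold change −0.45), and Dlst, a subunit of the 2-oxoglutarate dehydrogenase complex, rose from 4722 ± 168 to 5512 ± 232 (0.22), both under either scaling. Of 14 regulators of mitochondrial biogenesis, 1 rose and 3 were lower under the deposited scaling (also 7.14% and 21.4%). Under TMM 1 rose and 1 was lower (7.14% each). The riser was Ppargc1b, which encodes the coactivator PGC-1β: it was at 95.2, 104 and 95.3 in the libraries labelled WT and at 234, 317 and 263 in those labelled KO (log2 fold change 1.45 ± 0.15, SE, limma adjusted p = 3.54e-05). Gabpb1, the beta subunit of GABP, fell under both scalings (−0.49 and −0.35), and Nrf1, Gabpa and Esrra passed under neither.

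Of 12 genes of the hypoxia response, 5 rose and 1 was lower under the deposited scaling (41.7% and 8.33%, against 11.3% and 23.4% of all genes). Under TMM 6 rose and 0 were lower (50% and 0%, against 15.4% each way). None was lower under TMM at an unadjusted p under 0.05, and edgeR and DESeq2 called 0 lower. Egln3, a prolyl hydroxylase, rose from 34.7 ± 5.01 to 176 ± 43.9 (log2 fold change 2.29), Car9, a carbonic anhydrase, from 38.1 ± 5.88 to 117 ± 8.53 (1.60), and Ldha, which makes lactate, from 4443 ± 265 to 5852 ± 363 (0.40). Cox4i2 and Ndufa4l2, the subunit forms linked to hypoxia, did not pass, as given above, and their levels were lower in the libraries labelled KO.

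Markers of other cells were mostly lower in the libraries labelled KO, and of the neutrophil markers Mmp8, Elane and Mpo were listed at 0 in all 3 of them. Of the tested markers, 8 of 9 for neutrophils, 9 of 10 for neurons, 9 of 10 for astrocytes, 7 of 10 for oligodendrocytes and 8 of 10 for endothelium were lower under the deposited scaling, and 0 of 6 for red cells. Under TMM these counts were 8, 8, 9, 7, 6 and 0, and 5 of 9 for pericytes and smooth muscle. Of all genes tested, 23.4% were lower under the deposited scaling and 15.4% under TMM. The summed levels were 1891 to 16825 against 55.4 to 118 for neutrophils, 308 to 445 against 135 to 172 for neurons, 6581 to 9904 against 3019 to 3903 for astrocytes, 8459 to 23642 against 5734 to 6581 for oligodendrocytes and 2475 to 4562 against 1103 to 1285 for endothelium. Red cell markers were at 60.8 to 231 and 60.9 to 182, and none of the 6 passed at an unadjusted p under 0.05 in limma, edgeR or DESeq2. Their part in the subunit levels was not tested.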

How the data were processed

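RNA of sorted microglia was sequenced in 6 libraries, 3 per group. Per the submitters' processing notes, the genome was mm10 (GRCm38) and the tools included STAR 2.7.1a, Trimmomatic 0.39, DESeq2 1.26.0 and HOMER 4.11.1. The authors deposited a signal per gene and library, scaled by them so that each column has the same total; within 0.1, 100% of the values are whole multiples of 1 step per library, 0.445 to 0.603, which gave back the whole reads. The deposited log2 fold changes, p-values and adjusted p-values are the authors' own comparison, and the transcript length is used as deposited, as a score with no normalization. Columns name a group and a letter, so libraries are called A to C within a group. Columns of other samples numbered 0.

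Log2(level + 1) of 22472 genes with a mean above 1 (1 row per symbol, 117 rows left out) was tested with limma 3.58.1 (trend, R 4.3.3), with Benjamini-Hochberg adjustment over all genes and a threshold of 0.05. Fold changes are on this scale and understate the change of low genes. Alternatives were TMM factors (edgeR 4.0.16), edgeR and DESeq2 1.42.0 on the recovered reads, other pseudocounts, filters and thresholds, a block for the library letter, and leaving out each library. The letters were taken to pair the libraries because deviations from the group means correlated at 0.61, 0.20 and 0.30 for letters A, B and C over 11588 genes. Between unlike letters the correlations ran from −0.36 to 0.08, and deviations from a mean of 3 libraries are not independent. No label states the pairing and it was read from the same values, so the block is an alternative fit only. The fit was tested on simulated data. Chi-square per gene between libraries of a group was at least 27.8, so none is a duplicate.

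The genes named are, in each complex, the 4 with the smallest p and the highest per kilobase, the 10 largest rises and falls among those called, all members of the flavin and iron-sulfur core and of the tissue forms, the 3 untested genes, up to 3 of each other list, and Qk and Cx3cr1; others were named after their values were seen. The members and lists were chosen with earlier results of these data known. The values of 1 subunit gene are not reported here.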

Additional observations from a re-analysis of the deposited data

How the results depend on the processing

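Higher subunits numbered 11 in the deposited scaling with limma, and 5 with no filter on low values, 25 with TMM, 25 with edgeR under either TMM or RLE factors, 28 with DESeq2 and 22 with the replicate block. Leaving out 1 library gave 9 to 14, and with TMM 15 to 28 (26 without WT A, 15 without WT B, 18 without WT C, 15 without KO A, 28 without KO B, 19 without KO C). Lower subunits numbered 9, and 1 with no filter, 0 with TMM, 0 with edgeR under either factors, 1 with DESeq2 and 0 at a threshold of 0.01. Leaving out 1 library gave 1 to 10, and with TMM 0, except 2 without KO A. The subunits' median, 0.03 on the log2 scale, became 0.1642 with TMM, 0.1659 and 0.1703 with edgeR (TMM and RLE factors) and 0.1703 with DESeq2. Leaving out 1 library gave −0.0639 to 0.0813, and with TMM 0.0861 to 0.2239 (0.2138 without WT A, 0.1691 without WT C, 0.1983 without KO C). Genes called over the whole table, 7781, were 3851 with no filter and 4710 at 0.01; on the recovered reads edgeR called 6713 and DESeq2 7196. The TMM leave-outs were added after seeing the data. None of the 20 subunits called under the deposited scaling changed sign under any setting run. With the replicate block, 15 subunits gained a call and 0 lost it. The cause of the differences between scalings was not tested, beyond the shift of the median of all genes.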
